A study of Mus musculus with 3 samples.

Results

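The genes of steroid and glucocorticoid metabolism described here are 9 of the 22367 protein-coding genes of the mouse genome, chosen by name for their roles: Hsd11b1, Srd5a1, Akr1d1, Akr1c6, Hsd17b2, Hsd3b5, Nr3c1, Fkbp5 and Tsc22d3. All 9 were found in the GENCODE M1 annotation of the NCBI37/mm9 genome, and the rule names them without using a measured value, although earlier results of these data were known when it was set. The question put to each gene was where RXRα and RARα, the retinoid receptors whose hepatic DNA binding the study mapped, sat within 10 kb of its start and over its body. The chromatin came from livers of male wild type C57BL/6 mice aged 3 months, with no treatment named in the labels. One library was precipitated with an anti-RXRα antibody, 1 with an anti-RARα antibody, and 1 was input chromatin. No library was replicated, so every value describes these 3 libraries, no test between mice is possible, and the intervals given below cover counting error only.

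Glucocorticoids are adrenal steroids whose action in hepatocytes is set at several steps. Reductases and dehydrogenases of the liver regenerate, reduce or oxidize steroid hormones before they reach a receptor. The glucocorticoid receptor is held in a chaperone complex until it binds hormone, then enters the nucleus and binds paired AGAACA and TGTTCT hexamers that are separated by 3 bases. RXRα and RARα are nuclear receptors of another branch of the family. RXRα pairs with many partners, RARα among them, on tandem copies of the hexamer AGGTCA, known as direct repeats.

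The RXRα and input tracks held coverage in 32 bp bins that corresponded to 9999939 and 9999292 reads. These are totals of the deposited tracks, which may have been scaled and are not the sequenced depth, and the counting intervals take the deposited coverage as reads. The RARα library was given as a list of 143280 peaks with scores from 5 to 382, of which 32946 scored above 20, and its depth is unknown from the list. An RXRα region below is a run of bins with RXRα coverage at least 20 times the input, where input is never taken as lower than its genome mean of 0.603 reads per bin. A RARα peak is a listed peak with a score above 20. The tissue label was checked at 5 hepatocyte genes, Alb, Apoa1, Ttr, Hnf4a and Serpina1a, all of which had an RXRα region within 10 kb and 4 of which had a RARα peak. Of 5 genes of other tissues (Ins2, Myh6, Neurod1, Cd3e and Gfap), only Gfap had an RXRα region and a RARα peak.

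An RXRα region lay within 10 kb of the start of each of the 9 genes, where 39.8% of all protein-coding genes had one. A RARα peak lay within 10 kb of 8 of the 9, the exception being Akr1d1, against 52.2% of all genes. A RARα peak that overlapped an RXRα region by at least 25% of the narrower interval, called co-localized below, was found near 5 genes (Srd5a1, Akr1c6, Hsd17b2, Nr3c1 and Fkbp5), against 23.5% of all genes. Over the gene bodies, all 9 held an RXRα region (33.9% of all genes) and 7 held a RARα peak (42.5% of all genes), Akr1c6 and Hsd3b5 being without. The genes were alike in carrying RXRα and unlike in how much of it was shared with RARα.

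The 9 genes held 45 RARα peaks and 71 RXRα regions within 10 kb of a start or in a body. Introns held 26 of the 45 peaks and 55 of the 71 regions. Within 1 kb of an annotated transcript start lay 19 of the 45 peaks and 16 of the 71 regions. The span searched took in whole gene bodies of up to 118 kb. No share over all genes is given beside these counts of place. At the highest bin of each region RXRα coverage ran from 13 to 120 reads, while input coverage there was 0 in 39 regions, 1 in 26 and at most 4 in the rest. The highest ratios of the regions ran from 20.5 to 96.2 with a median of 38.0, beside 34.9 for all such regions of protein-coding genes. The median RARα score was 31, beside 33 for all such peaks. Of the 71 regions, 27 (38.0%) overlapped a RARα peak with a score above 20 and 21 (29.6%) overlapped no listed peak, beside 29.3% and 42.1% of the 29238 regions near a start or in a body of any gene.

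**Figure D1:**
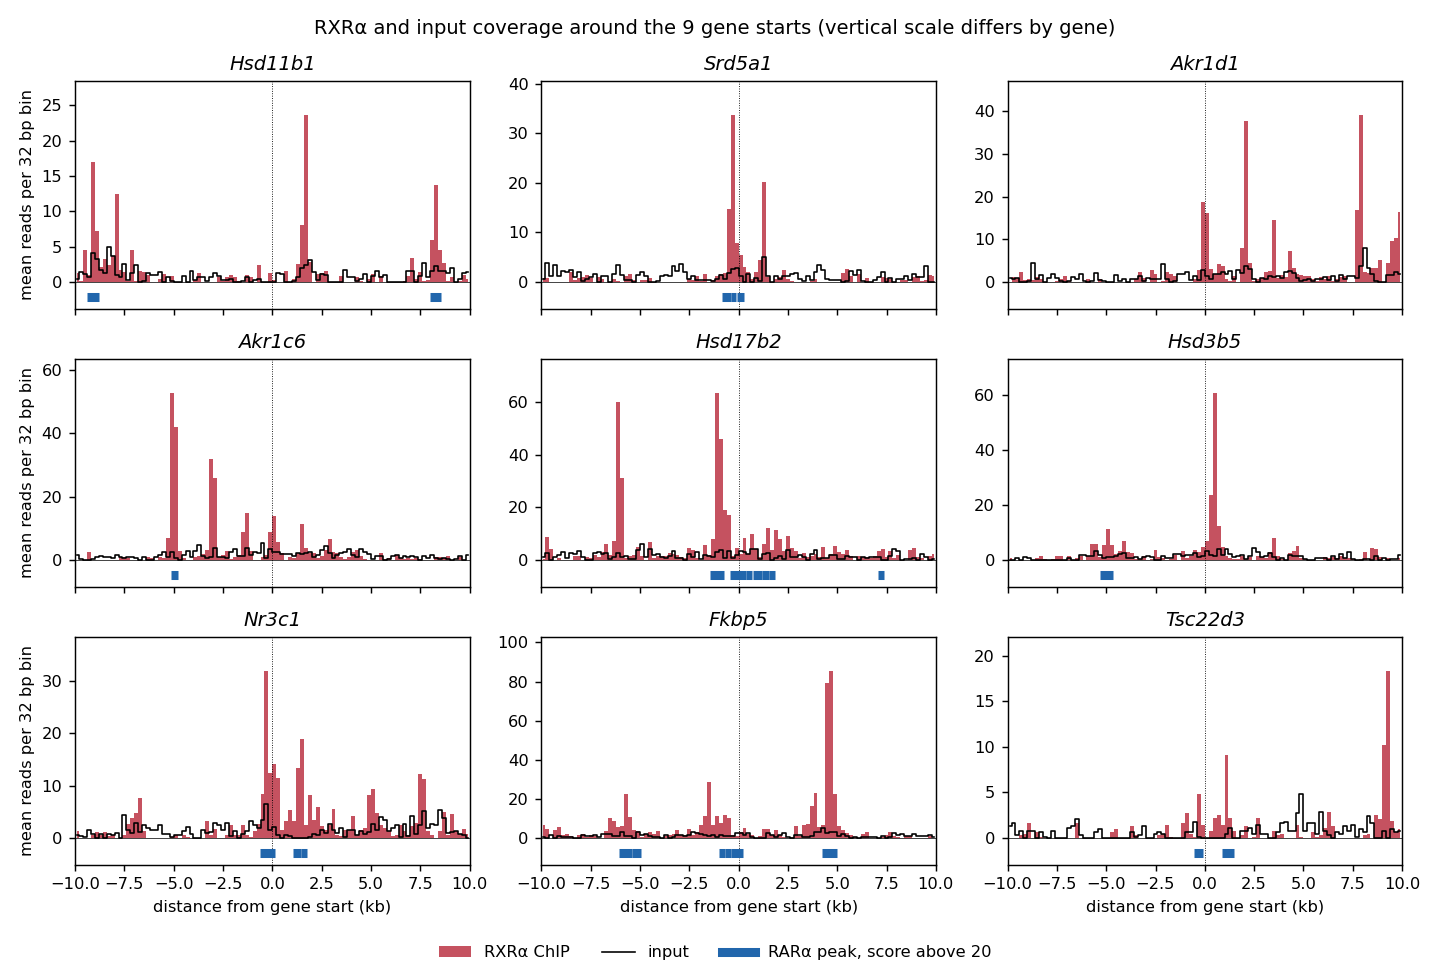
RXRα coverage (red), input coverage (black line) and RARα peaks with a score above 20 (blue bars) are drawn from 10 kb before to 10 kb after each of the 9 gene starts, as mean reads per 32 bp bin in steps of 200 bp, on a vertical scale that differs by gene. RXRα regions lie within 500 bp of the start in Srd5a1, Akr1d1, Akr1c6, Hsd3b5 and Nr3c1. The tallest RXRα signal of Hsd11b1, Akr1d1, Akr1c6, Hsd17b2, Fkbp5 and Tsc22d3 is farther away. No blue bar is drawn for Akr1d1.

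Reads summed over the 20 kb around a start gave a coarser measure. In the RXRα library the 9 genes held 115 to 694 reads, and in input 79 to 201. The ratio of RXRα over input reads had a median of 2.18 over the 9 genes and of 1.09 over all genes. Fkbp5 was highest, with 694 RXRα and 149 input reads and a ratio of 4.66 (95% exact interval 3.90 to 5.60), above 97.7% of all genes. Hsd17b2 followed with 621 and 201 reads and a ratio of 3.09 (2.63 to 3.64), which did not overlap the interval of Fkbp5. From there the order was Akr1d1 (2.37), Hsd3b5 (2.32), Akr1c6 (2.18), Nr3c1 (366 over 183 reads), Hsd11b1 (1.81), Tsc22d3 (1.46) and Srd5a1 (1.23), and each neighbouring pair in it had overlapping intervals. Only for Srd5a1 did the interval, 0.981 to 1.54, reach down to equal coverage. Input itself was higher around the 9 genes than around genes in general, with median counts of 149 and 81 reads, and the part of this in the other values was not tested.

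**Figure D2:**
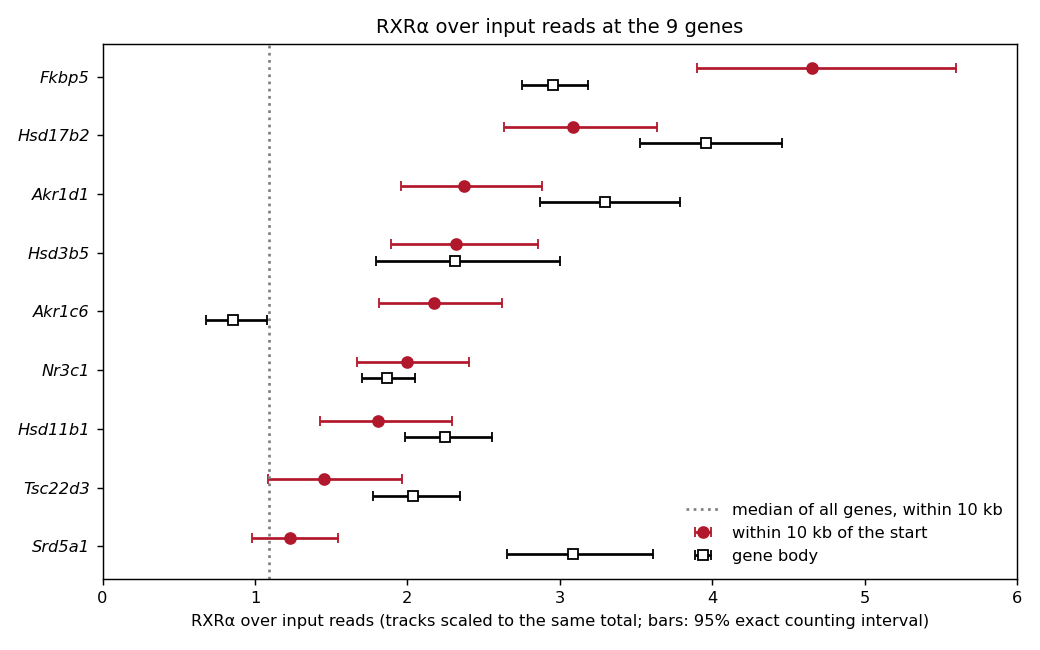
The ratio of RXRα over input reads, after both tracks were scaled to the same total, is drawn for each gene within 10 kb of the start (filled circles) and over the gene body (open squares), with bars for the 95% exact counting interval and a dotted line at the median of all genes within 10 kb, 1.09. Fkbp5 stands highest around the start at 4.66, and Akr1c6 falls from 2.18 around the start to 0.855 over the body.

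Hsd11b1 encodes 11β-hydroxysteroid dehydrogenase type 1, which regenerates active corticosterone from its inert 11-keto form in the liver. The gene lies on the minus strand of chromosome 1 (195047824 to 195090248, 42.4 kb). Around its annotated 5′ end there was little: 7 RXRα and 4 input reads fell within 1 kb, the RXRα region 1656 bp downstream reached a ratio of 28.0 from 28 reads over 1, and the RARα peaks lay at -9007 bp, closest to the start of G0s2 and scoring 64, and at 8403 bp in an intron, scoring 47. A further 5 transcripts start 20530 to 23644 bp further along. Around the start of Hsd11b1-002 at 21463 bp, 149 RXRα and 36 input reads fell within 1 kb, a ratio of 4.14 (95% exact interval 2.86 to 6.13). The only co-localized site of the gene sat 210 bp inside that transcript, with a RARα score of 42 and an RXRα ratio of 53.1 from 32 reads over 0. More RXRα reads were thus found at the internal starts of this gene than at the gene start. Among the internal starts, Hsd11b1-006 had only 10 RXRα over 11 input reads and Hsd11b1-004 had 35 over 16. At the gene start the ratio of 1.75 from 11 reads in all carried an interval from 0.445 to 8.15.

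The RXRα region just before the transcript start at 22457 bp (38 reads over 1, ratio 38.0, no listed RARα peak) held the closest match to a direct repeat in Hsd11b1, with 3 bases between the hexamers and 1 mismatch. It is shown because no other region of the 9 genes but 1 of Srd5a1 matched a direct repeat as closely. In this window, chr1:195067846-195067926 on the plus strand of NCBI37/mm9, the capitals mark both hexamers.
Hsd11b1 intronic region: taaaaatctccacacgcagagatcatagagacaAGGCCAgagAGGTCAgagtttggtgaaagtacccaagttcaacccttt

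Srd5a1 encodes steroid 5α-reductase type 1, which inactivates glucocorticoids and turns testosterone into dihydrotestosterone. It lies on the minus strand of chromosome 13 (69712327 to 69750320, 38.0 kb). Its start carried 3 RARα peaks, at -615, -240 and 130 bp, with scores of 43, 24 and 33. The middle peak was co-localized with an RXRα region of ratio 21.0 (21 reads over 1), which is only just above the threshold of 20. Within 1 kb of the start there were 91 RXRα and 16 input reads, a ratio of 5.69 (95% exact interval 3.32 to 10.4), while over 20 kb the ratio was 1.23. RXRα at this start was confined to a stretch much narrower than the window. The introns held 5 more RXRα regions, 14672 to 33920 bp downstream, with ratios from 28.2 to 71.4. None of these 5 overlapped any listed RARα peak. The farthest was closer to the start of A530095I07Rik than to that of Srd5a1.

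One of the intronic regions of Srd5a1 (78 reads over 2, ratio 39.0) held a direct repeat spaced by 1 base with 1 mismatch, 57 bp from its highest bin. Direct repeats of this spacing are bound by RXRα with several of its partners. The window is chr13:69721423-69721503, printed on the minus strand along the direction of transcription, with the hexamers in capitals.
Srd5a1 intronic region: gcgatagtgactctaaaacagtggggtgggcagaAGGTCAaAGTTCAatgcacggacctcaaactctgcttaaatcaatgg

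Akr1d1 encodes the 5β-reductase, which clears steroid hormones and takes part in bile acid synthesis. It lies on the plus strand of chromosome 6 with its start at 37480173. It was the only one of the 9 genes without a RARα peak within 10 kb, and no peak was listed there at any score. RXRα was nevertheless present on the start itself, with a region whose highest bin held 29 reads over 0 in input (ratio 48.1), 3 bp from the annotated 5′ end. Further regions followed at 3507, 7763, 10147, 11283 and 12995 bp with ratios of 22.0, 43.0, 48.5, 63.0 and 61.4. Around the internal transcript start at 9508 bp, 271 RXRα and 21 input reads fell within 1 kb, a ratio of 12.9 (95% exact interval 8.27 to 21.2). Of the 6 RXRα regions, 5 overlapped no listed RARα peak and 1 overlapped a peak scoring 9. The single RARα peak of the body, at 22782 bp with a score of 45, had as much input as RXRα, with an RXRα enrichment of 0.977 (mean RXRα coverage over mean input coverage). Both receptors were found in Akr1d1, but no RARα peak with a score above 20 coincided with an RXRα region there.

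That RARα peak without RXRα held a direct repeat spaced by 4 bases with 2 mismatches, 13 bp from its summit. It is shown as the sequence of the only RARα peak in Akr1d1, beside the strongest RXRα region of the gene, where no pair of hexamers matched. Direct repeats with 2 mismatches were present in the RXRα regions of Akr1d1 at 10147 and 12995 bp, which are not printed. The windows are chr6:37502928-37503008 on the minus strand and chr6:37491304-37491384 on the plus strand.
Akr1d1 RARα peak: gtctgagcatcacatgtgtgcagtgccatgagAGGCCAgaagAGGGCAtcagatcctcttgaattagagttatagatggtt
Akr1d1 RXRα region: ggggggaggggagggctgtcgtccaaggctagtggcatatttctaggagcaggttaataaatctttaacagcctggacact

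Of the 17 RXRα regions of Hsd11b1, Srd5a1 and Akr1d1, 14 overlapped no listed RARα peak and 2 overlapped a peak with a score above 20, where 42.1% of the regions of all genes overlapped no listed peak. These 3 genes were put together after their values were seen.

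Akr1c6 encodes an aldo-keto reductase that acts as a 17β-hydroxysteroid dehydrogenase of the mouse liver. It lies on the plus strand of chromosome 13 with its start at 4433552. A set of 3 RXRα regions stood in its upstream 5 kb and on its start, at -4976, -3056 and 32 bp, with ratios of 84.0, 49.8 and 38.2. The farthest, 84 reads over 1, was co-localized with the only RARα peak of the gene, which scored 29 and had an RXRα enrichment of 33.3, the highest at any of the 45 RARα peaks. The other RXRα regions overlapped listed RARα peaks scoring 12 and 18, below the threshold. Over the gene body the ratio of RXRα over input reads was 0.855 (95% exact interval 0.679 to 1.08), the lowest of the 9 genes and the only one whose interval included equal coverage there. All 3 RXRα regions of Akr1c6 were upstream or on the start, and none lay further inside the gene. Akr1c6 belongs to a cluster of near-identical genes in which unique alignment can lose reads, and the input held 175 reads around its start, against 75.3 in 20 kb on average over the genome.

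Hsd17b2 encodes the dehydrogenase that oxidizes estradiol and testosterone to their less active keto forms. It lies on the plus strand of chromosome 8 with a single annotated start at 120225846. Within 10 kb, 7 RARα peaks scored from 22 to 34. A run of 5 of them, ending at 1659 bp downstream, abutted or nearly abutted each other, with RXRα enrichments from 1.43 to 8.12 and no RXRα region. The RARα peak at -1026 bp (score 31) was the exception, lying on an RXRα region whose highest bin held 90 reads over 3. Its downstream end only touched the edge of a further RXRα region, whose highest bin held 24 reads over 0. In the introns, 12 RXRα regions reached from 11338 to 45530 bp, with the highest ratio of all 71 regions, 96.2 (58 reads over 0), at 12954 bp. The body as a whole held 3.96 times as many RXRα as input reads (95% exact interval 3.52 to 4.46), the highest of the 9 genes, although its interval overlapped those of Akr1d1 and Srd5a1. RARα was also dense there: 80 listed peaks of any score covered 45.6% of the body, a share above that of 96.9% of all genes, whose median was 1.84%.

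The highest RARα score in Hsd17b2, 37 at 16649 bp, coincided with an RXRα region of 77 reads over 1, and a direct repeat spaced by 1 base with 2 mismatches lay 5 bp from the RARα summit. It was the only co-localized site of the 9 genes with a direct repeat this near a RARα summit. Printed below it is the strongest RXRα region, in which no pair matched. The windows are chr8:120242450-120242530 and chr8:120238792-120238872, both on the plus strand.
Hsd17b2 co-localized site: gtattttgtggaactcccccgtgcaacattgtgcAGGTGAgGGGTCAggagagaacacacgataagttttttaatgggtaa
Hsd17b2 strongest RXRα region: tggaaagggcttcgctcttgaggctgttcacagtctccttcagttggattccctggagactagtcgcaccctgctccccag

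Hsd3b5 encodes a member of the 3β-hydroxysteroid dehydrogenase family found in male mouse liver, where it acts as a 3-ketosteroid reductase. It lies on the minus strand of chromosome 3 with its start at 98434232. One RXRα region with 44 reads over 0 (ratio 73.0) lay 472 bp inside the gene, and 152 RXRα against 27 input reads within 1 kb of the start gave a ratio of 5.63 (95% exact interval 3.72 to 8.82). A RARα peak of score 18 was listed over that region, and the only peak above 20 scored 22 at -5018 bp. Both scores lie next to the threshold. As in Hsd17b2, low-scoring listed peaks were dense, with 12 covering 35.4% of the body.

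**Figure D3:**
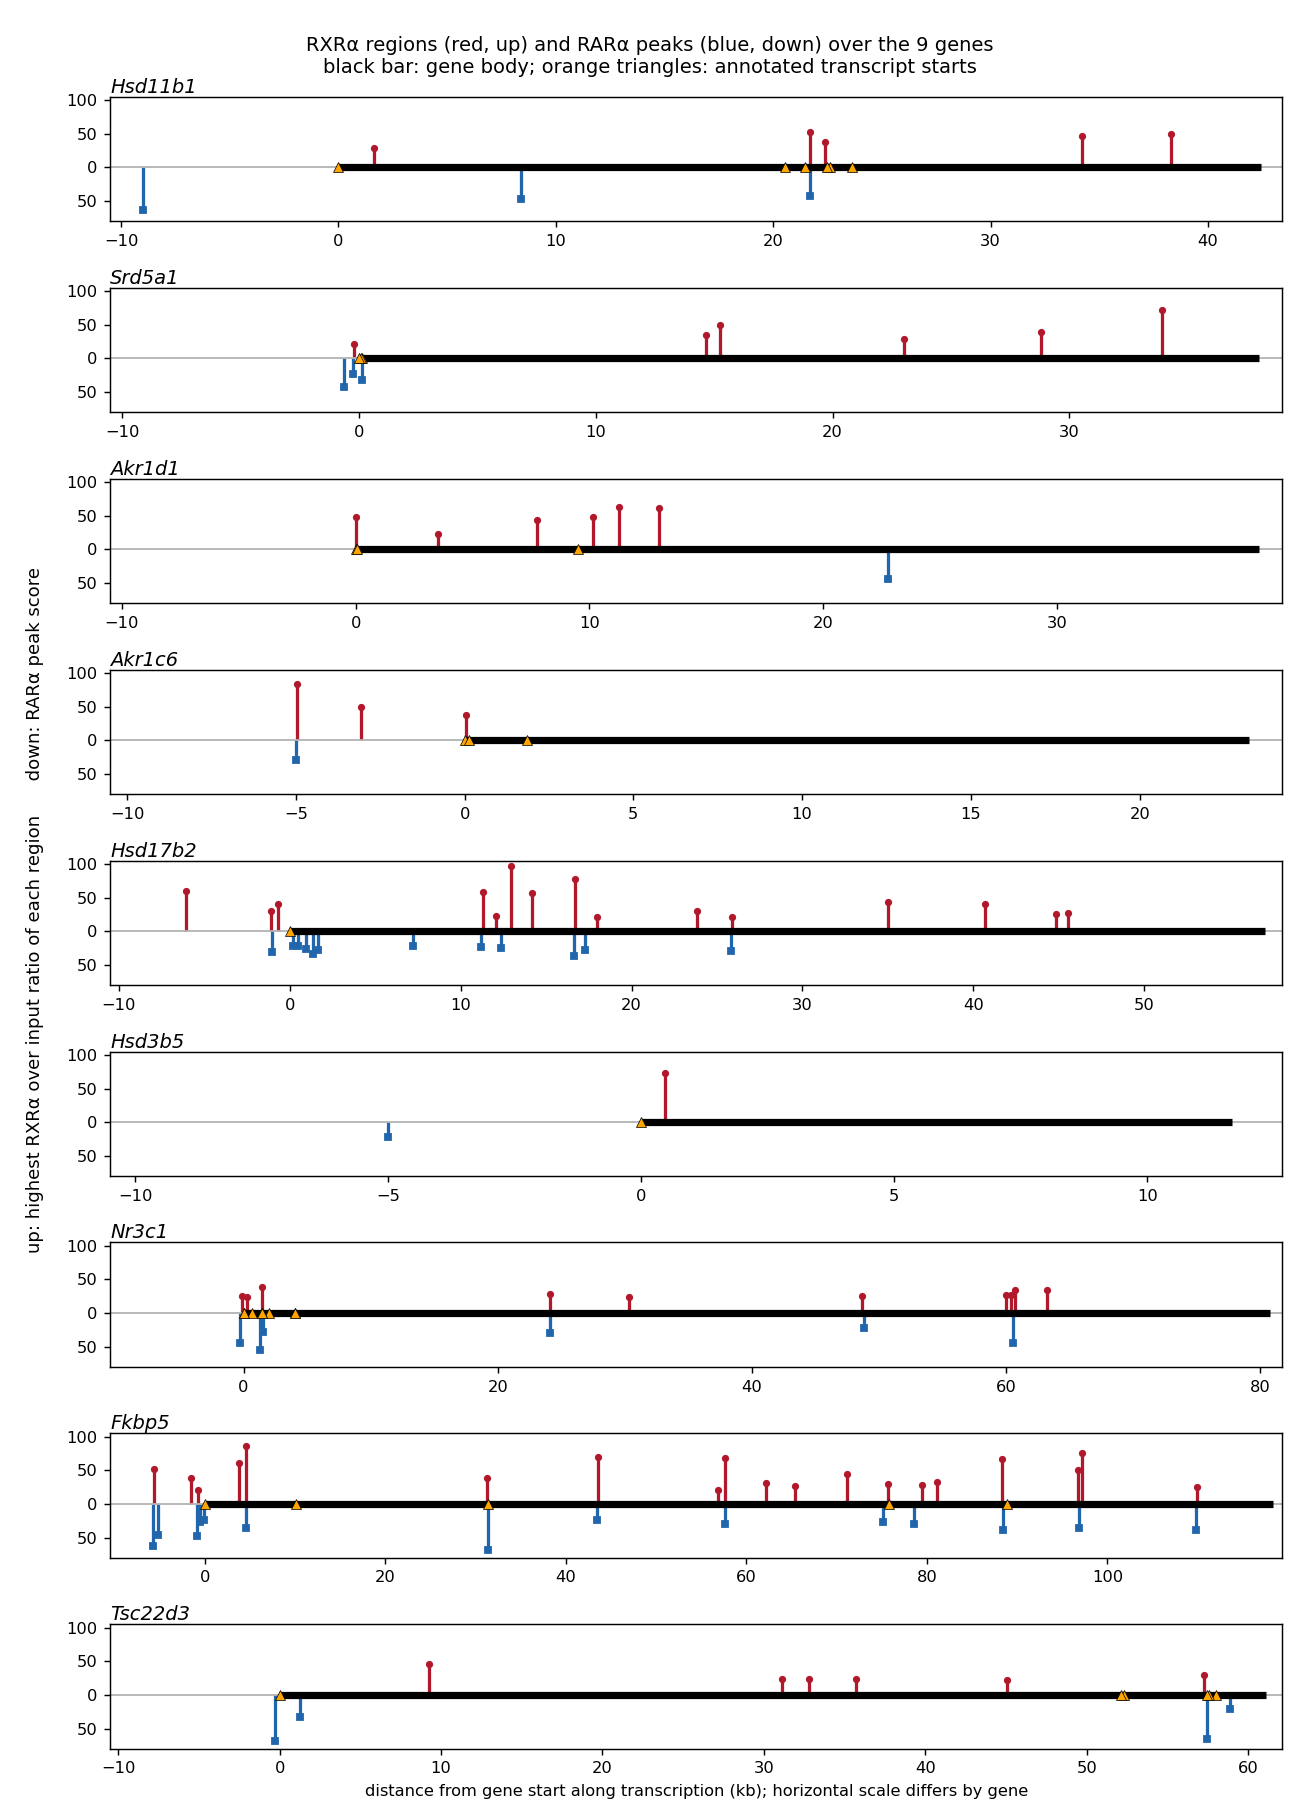
The highest RXRα over input ratio of each region (red, upwards) and the score of each RARα peak above 20 (blue, downwards) are drawn along the 9 genes by distance from the gene start, with the gene body as a black bar and annotated transcript starts as orange triangles. Red and blue meet along Fkbp5 and Nr3c1, whereas the intronic RXRα regions of Srd5a1 and Akr1d1 have no blue mark beneath them.

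Nr3c1 encodes the glucocorticoid receptor. Its annotated starts are spread over 4069 bp, and all 3 RXRα regions and all 3 RARα peaks within 10 kb lay among or just before them. RARα peaks at -265, 1290 and 1560 bp scored 45, 55 and 28, and each was co-localized with RXRα. Coverage was highest relative to input at the start of Nr3c1-002, 1455 bp downstream, with 82 RXRα and 3 input reads within 1 kb and a ratio of 27.3 (95% exact interval 9.03 to 135), while around the gene start the counts were 116 and 24 (4.83, 3.09 to 7.85). These intervals did not overlap, although the windows share part of their reads. The higher ratio rested on few input reads, 3 against 24, since RXRα reads were also fewer there, 82 against 116. In the introns, RARα peaks at 24105, 48790 and 60590 bp scored 29, 22 and 44 and lay on RXRα regions with ratios of 28.3, 24.9 and 35.0. Every one of the 6 RARα peaks of Nr3c1 was co-localized with an RXRα region, which held for no other gene with more than 1 peak.

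Fkbp5 encodes a co-chaperone of the glucocorticoid receptor complex that lowers the affinity of the receptor for hormone and is itself induced by glucocorticoids. The gene is the longest of the 9 and lies on the minus strand of chromosome 17 with its start at 28654469. It held 14 RARα peaks, 9 of them co-localized, and 19 RXRα regions, 10 of which overlapped a RARα peak with a score above 20. Within 10 kb, the strongest RXRα region was at 4581 bp in an intron (87 reads over 1, ratio 87.0), co-localized with a RARα peak of score 35. RARα scored higher upstream, with 47 at -851 bp, a co-localized peak, and with 62 at -5786 bp and 46 at -5166 bp, which are closer to the start of E230001N04Rik. The highest RARα score in Fkbp5, 68, was 11 bp before the start of the transcript Fkbp5-001, at 31364 bp, over an RXRα region of 23 reads over 0 (ratio 38.2). Further co-localized RARα peaks ran down the body at 43494, 57614, 88404, 96874 and 109874 bp, scoring from 24 to 39. The last 3 are closer to the start of Tulp1 than to that of Fkbp5. Listed RARα peaks of any score covered 29.6% of the body.

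The introns of Fkbp5 also held exact pairs of the glucocorticoid receptor hexamers, AGAACA and TGTTCT separated by 3 bases. There were 2 such pairs in the gene and none within 10 kb of the start or in the body of the other 8 genes. The pair at 97196 bp (28557266 to 28557280) lay in an RXRα region of 46 reads over 0, ratio 76.3. It fell inside a listed RARα peak scoring 13, below the threshold. The neighbouring RARα peak of score 35 began within 100 bp of the pair, at 28557341, but had its summit at 28557595. The pair at 75098 bp (28579364 to 28579378) was 16 bp from the summit of a RARα peak of score 27, and the 200 bp around it held coverage from 52 RXRα and 6 input reads, without an RXRα region. Over the genome 639 exact pairs were found, of which 14 (2.19%) lay within 100 bp of an RXRα region, 7 (1.10%) of a RARα peak with a score above 20, and 5 (0.783%) of both. That the pair is printed in capitals says that these letters are present, and the glucocorticoid receptor itself was not measured. The windows are chr17:28557233-28557313 and chr17:28579331-28579411 on the plus strand, against the direction of transcription, and the pair reads the same on either strand apart from its 3 middle bases.
Fkbp5 intronic site at 97196 bp: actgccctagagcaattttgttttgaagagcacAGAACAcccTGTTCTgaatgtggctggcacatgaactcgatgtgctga
Fkbp5 intronic site at 75098 bp: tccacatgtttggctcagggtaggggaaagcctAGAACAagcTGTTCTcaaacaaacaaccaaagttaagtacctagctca

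Tsc22d3 encodes the glucocorticoid-induced leucine zipper protein, a widely used readout of glucocorticoid receptor activity. It lies on the minus strand of chromosome X with its start at 137135198. The RARα peak at -257 bp scored 68, the joint highest of the 9 genes with that of Fkbp5, and a peak of score 33 stood at 1238 bp. Within 1 kb of the start there were 21 RXRα and 4 input reads, a ratio of 5.25 (95% exact interval 1.77 to 21.0), and no RXRα region. The only RXRα region of the window was instead at 9262 bp (28 reads over 0, ratio 46.5). Near the other end of the gene, at the start of the transcript Tsc22d3-001 57472 bp downstream, both receptors met: a RARα peak scoring 65 lay 29 bp before this start and was co-localized with an RXRα region of 30 reads over 1. Around it 91 RXRα and 23 input reads fell within 1 kb, a ratio of 3.96 (95% exact interval 2.48 to 6.55). RARα scored 68 and 65 at these starts. The RXRα read ratios had overlapping intervals, and an RXRα region was found at the internal start and not at the gene start.

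The position of the annotated start therefore decided what was counted in 2 genes. When windows of 10 kb were placed around every annotated transcript start, a choice made after the data were seen, co-localization was found in 7 of the 9 genes, with Hsd11b1 and Tsc22d3 added, against 25.7% of all genes. RARα peaks were then found in 8 of 9 genes (55.1% of all genes), and RXRα regions in 9 of 9 (43.6%).

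**Figure D4:**
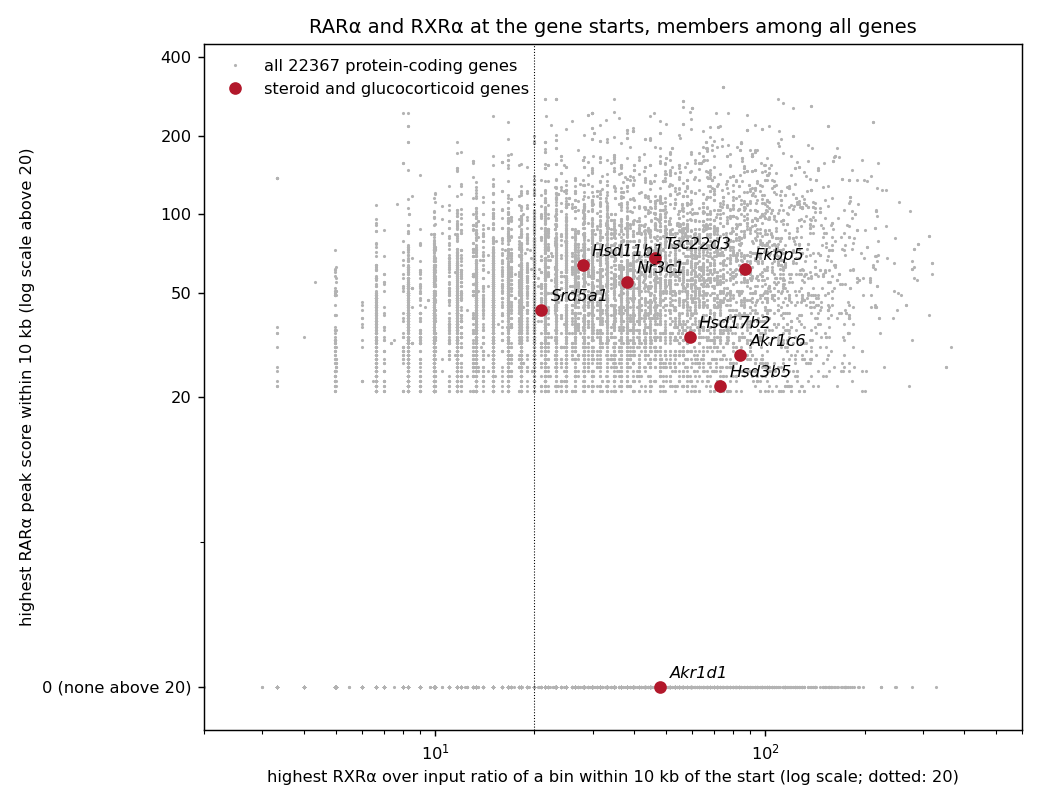
Each grey point is a protein-coding gene, placed by the highest RXRα over input ratio of a bin within 10 kb of its start (horizontal, log scale) and its highest RARα score there (vertical, log scale above 20), with the 9 steroid and glucocorticoid genes in red. The 9 genes span RXRα ratios from 21.0 at Srd5a1 to 87.0 at Fkbp5 and RARα scores from 22 at Hsd3b5 to 68 at Tsc22d3, and Akr1d1 sits on the baseline without a RARα peak.

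Height of the RXRα signal and RARα score did not order the genes alike. By its highest bin within 10 kb, Akr1c6 (84.0) stood next to Fkbp5 (87.0), yet its RARα score of 29 was less than that of Tsc22d3 (68), Hsd11b1 (64) or Nr3c1 (55), whose RXRα ratios were 46.5, 28.0 and 38.2. The median highest ratio was 48.1 over the 9 genes and 14.9 over all genes. Among genes with a RARα peak, the median of the highest score was 49 for the 8 genes and 48 for all. The 9 genes thus had a median highest RXRα ratio above that of all genes. The RXRα medians took in genes without a region, while the RARα medians left out genes without a peak, so the receptors are not compared alike. Per site within 10 kb or in a body, the median RXRα ratio was 38.0, beside 34.9 for all regions. The median RARα score per site was 31, beside 33 for all peaks.

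The letters under the RXRα regions were counted next. Within 100 bp of the highest bin, a direct repeat of AGGTCA with 0 to 5 bases between the hexamers and at most 2 mismatches, on either strand, was present in 15 of the 71 regions (21.1%) and in 32.9% of the 29238 regions near a start or in a body of any gene. Repeats of different spacing can overlap and a region was counted once. All 15 lay in introns or exons beyond 10 kb from the gene start, and none of the 21 regions within 10 kb held a match, against 30.5% of such regions in all genes. At RARα summits the shares were 13.3% of 45 peaks and 13.9% of 26057. Paired glucocorticoid receptor hexamers with at most 2 mismatches were present in 3 of the 71 RXRα regions (4.23%, beside 1.98% of all), in Akr1c6 and at 2 sites of Fkbp5, and in 1 of the 45 RARα peaks. These are descriptions of letters in windows, and an absent match says nothing on which receptor was bound.

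Related genes give the surroundings of these values. Among 27 other steroid reductases and dehydrogenases, 19 had a RARα peak within 10 kb, 17 an RXRα region and 10 a co-localized site. Over all protein-coding genes these shares were 52.2%, 39.8% and 23.5%. H6pd, which supplies the NADPH used by the Hsd11b1 enzyme, had the highest RARα score of this list at 86, and Hsd17b4, of peroxisomal fatty acid oxidation, the highest RXRα ratio at 159. Neither receptor was found at Akr1c19, Akr1c21, Hsd3b2 and Hsd3b6, relatives of Akr1c6 and Hsd3b5. Of 10 genes of adrenal and gonadal steroid synthesis, 4 had a RARα peak, 5 an RXRα region and 4 a co-localized site. The highest values there were those of electron donors that act outside these glands too. These were Fdx1 with a RARα score of 158 and Por with an RXRα ratio of 171. Cyp17a1 had a RARα score of 46, an RXRα ratio of 136 and a co-localized site. Cyp21a1 had an RXRα ratio of 59.7 without a RARα peak. Neither a peak nor a region lay within 10 kb of Star, Cyp11a1, Cyp11b1, Cyp11b2 and Cyp19a1.

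Around the glucocorticoid receptor the lists were fuller, beside 52.2% (RARα peak), 39.8% (RXRα region) and 23.5% (co-localized) of all genes. All 6 genes of its chaperones and of the plasma carrier had a RARα peak and an RXRα region, and 5 had a co-localized site. The highest RARα score was 197 at Hsp90ab1, the constitutive Hsp90 that holds the receptor, and the highest RXRα ratio 196 at Serpina6, which encodes the corticosteroid-binding globulin of plasma. Of 13 known glucocorticoid target genes, 12 had all of these, with a RARα score of 276 at Errfi1, a feedback inhibitor of EGF receptor signalling, and an RXRα ratio of 254 at Klf9, a transcription factor. The only one with neither within 10 kb was Sgk1, a kinase of ion transport. The values of Fkbp5 and Tsc22d3, themselves such targets, were below these highest ones. Among the target genes, Mt1 and Mt2 had the same highest RARα score, 58, and RXRα ratio, 94.6, so their windows may share sites. Of 5 other steroid receptor genes, 3 had a RARα peak, 2 an RXRα region and 2 a co-localized site. Nr3c2, the mineralocorticoid receptor gene, had the highest RARα score at 157 and Esr1 the highest RXRα ratio at 66.0.

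**Figure D5:**
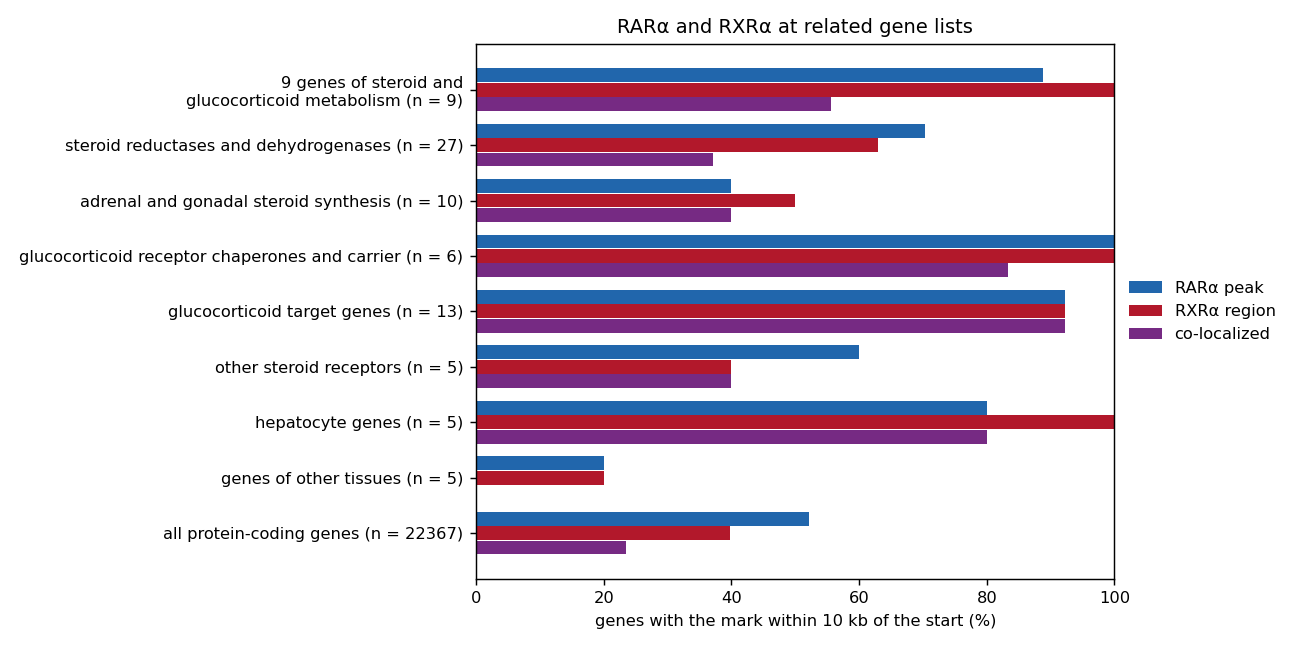
Bars give the percent of genes in each list with a RARα peak (blue), an RXRα region (red) and a co-localized site (purple) within 10 kb of the start, with the number of genes in brackets and all protein-coding genes in the lowest row. The 13 glucocorticoid target genes have 12 in each class, and the 5 genes of other tissues have 1, 1 and 0.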

How the data were processed

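The RXRα and input libraries were each deposited by the authors as a signal, in the form of whole-number read coverage in 32 bp bins, with an mm9 header. The study's methods name Bowtie for alignment (to mm10) and MACS for peaks, which the authors annotated on NCBI37/mm9. No listed peak ran past an mm9 chromosome end (0 found), so mm9 was used throughout. For RARα, the authors deposited a score for each peak and a false discovery rate in percent (at most 4.75), and what the score stands for is not given in the sources used here. The percent was not used as a filter.

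Reads were taken as summed bins divided by the 5 bins a read covers. The tracks were brought to equal means. Bins with RXRα at least 20 times the larger of local and mean input were joined within 200 bp into regions. The score above 20, the distance of 10 kb, the 20-fold ratio and the 25% overlap are thresholds of the study. Here the ratio was applied to single bins with a floor on input, and overlap was measured against whichever interval was narrower, so a narrow region inside a wide peak counts as co-localized. Read ratios carry 95% exact conditional binomial intervals. Reads aligned to near-identical genes may be lost or misplaced, and how the authors brought both tracks to nearly equal totals is not given in the sources used here.

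The 9 genes, the related lists and the rule for naming (all 9, and in each related list the highest RARα score, the highest RXRα ratio and the genes with neither, which are not reported here for the other steroid receptors) were chosen with earlier results of these data known. Lists are therefore described by counts, without tests. Akr1c14, Hsd3b1, Hsd3b3, Cyp17a1, Cyp21a1, Mt1 and Mt2 were named in addition to the naming rule. Windows of 81 bp were centred on matches with at most 1 mismatch, or in genes without one on the strongest RXRα bin, and on matches within 20 bp of a RARα summit. A selection of these is printed. Steps were tested on simulated data. Python 3.11.15, numpy 2.4.6, pandas 2.3.3, scipy 1.17.1, pysam 0.24.0 and matplotlib 3.10.9 were used.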

Additional observations from a re-analysis of the deposited data

How the results depend on the processing

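Counts of genes moved most with the thresholds. With RARα scores above 50 in place of 20, 4 of the 9 genes had a peak within 10 kb of the start (24.6% of all genes) and 3 had one over the body (17% of all). Co-localized sites were found near 8 genes when RXRα had to reach 10 times the input (38.9% of all genes) and near 3 at 30 times (14.9%). Without a score threshold, 8 genes had a listed RARα peak within 10 kb (67.3% of all genes) and 9 over the body (61.7%). RXRα regions within 10 kb stayed at 9 genes at 10 times the input (60.2% of all genes), without scaling (40.2%) and by nearest gene (34%), and numbered 8 within 5 kb (31.9%) and 7 at 30 times (27.9%). The number of genes with a matched pair of hexamers under a region or peak was 8 with at most 2 mismatches and 3 with at most 1. No share over all genes is given for this count, which grows with the number of sites in a gene. Per RXRα region, direct repeats with at most 2 mismatches were present in 21.1%, beside 32.9% of all such regions. The median read ratio of 2.18 became 2.42 within 5 kb and 2.31 over the body. Windows around any annotated transcript start and exact hexamer pairs were added after seeing the data. No paired analysis was possible because each antibody has a single library, which also means that no variation between mice could be estimated. The input track held an average of 75.3 reads in 20 kb, so ratios within 1 kb of a start rest on few input reads.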

Other observations

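Listed RARα peaks of low score formed dense fields over some of the 9 genes and not others. Fkbp5 held 99 listed peaks of any score, Hsd17b2 80 and Tsc22d3 27, which covered 29.6%, 45.6% and 13.0% of their bodies, while Srd5a1 held 2 and Akr1c6 2, covering 1.45% and 2.28%. The median over all genes was 1.84%. Because neighbouring entries often abut, the number of peaks in such a field is not a number of separate binding sites.

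Sgk1, without a RARα peak or an RXRα region within 10 kb of its 5′ end, held 6 RARα peaks and 5 RXRα regions over its body.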
